A study of Rattus norvegicus with 12 samples.

Results

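This account concerns 52 of the 32883 genes in a rat count table, the genes counted in smooth muscle cells of the pulmonary artery and in no endothelial library. They lie on chromosomes 1 to 20, had at least 10 counts in each of 6 libraries of pulmonary artery smooth muscle cells (PASMC) and had 0 counts in each of 6 libraries of pulmonary artery endothelial cells (PAEC). They were thus chosen by their counts in both cell types. A short stretch of chromosome 3 was left out, where 2 further genes met the same counts. RNA came from primary rat lung cells labelled wild type, grown in a smooth muscle or an endothelial medium. The groups were PASMC given an siRNA against NRF2 (siNRF2), PASMC given a control siRNA (siControl), PAEC given siNRF2 and PAEC given siControl, with 3 libraries each. The design text calls these biological replicates and does not say if animals or cultures were separate. P-values therefore measure the spread between these libraries. Columns of the table were matched to samples by reading their letters as short forms of the titles. The labels do not spell this out, and each direction rests on it. The cell type field names PASMC for all samples, so cell types were taken from the titles.

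Smooth muscle cells of the pulmonary artery contract and lay down the matrix of the vessel wall, while endothelial cells line its lumen. Neighbouring cell types of a tissue share most of the genes they express, and a small remainder is used by a single type. NRF2 is a transcription factor held in check by KEAP1 and released under oxidative stress, when it drives antioxidant and detoxifying genes. An siRNA lowers the mRNA it matches. The table names genes by Ensembl ID and pairs none with a symbol (0 of 32883 matched in the RefSeq table for assembly GRCr8), so the 52 genes are described by position, the siRNA target was not checked, and no promoter or protein sequence is shown. Positions follow the deposited table, with a genome build not given in the sources used here.

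Gene counts summed to between 27008812 and 34317763 per library. Mitochondrial genes took 1.47 to 1.75% of counts in PASMC siNRF2 and 2.67 to 3.32% in PASMC siControl. The cell types also differed in counts from the Y chromosome, at 46 to 105 per PASMC library and 7257 to 10784 per PAEC library. The sources used here do not describe the source animals, so cell type and source animal cannot be told apart in any absence from PAEC.

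The 52 genes were few among those that smooth muscle cells expressed. On the same chromosomes 12418 genes had at least 10 counts in each PASMC library, and the 52 were 0.419% of them. The mirror rule, at least 10 counts in each PAEC library and 0 in each PASMC library, found 8 of 11935 genes, or 0.067%. The 52 genes at 0 outnumbered the 18 further genes with 1 to 3 counts summed over the 6 PAEC libraries. With at most 1 such count allowed, the rule gave 56 genes. In wider bins, 55 genes had 4 to 10 counts and 104 had 11 to 30. The median level in PASMC was 1.45 CPM (counts scaled to library size, with TMM-adjusted sizes) for the genes at 0 and 1.02, 1.08 and 1.19 CPM for these 3 bins. The 9421 genes of the highest bin had a median of 38.1 CPM in PASMC. These values chose the genes and are given as a description.

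**Figure D1:**
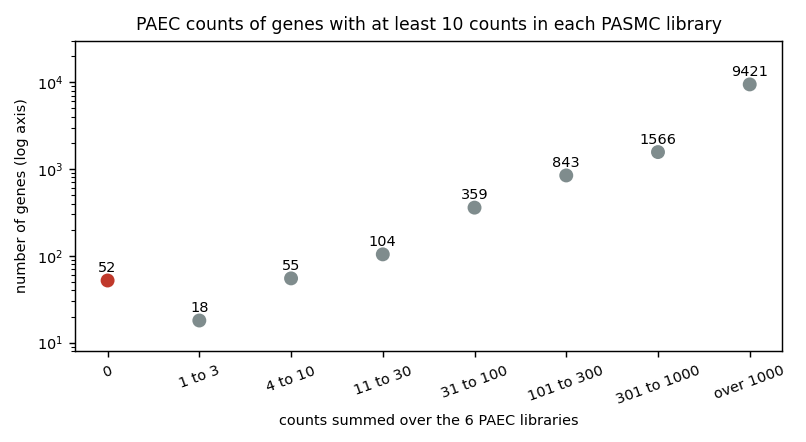
Number of genes (log axis) by their counts summed over the 6 PAEC libraries, among the 12418 genes with at least 10 counts in each PASMC library. The 52 genes at 0 (red) outnumber the 18 genes with 1 to 3 counts, and the highest bin holds 9421 genes.

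A count of 0 allows up to 3 counts over the 6 PAEC libraries, which is 0.0182 CPM. The ratio of the PASMC mean to that limit, which covers counting error only, was 27.3 for the lowest of the 52 genes, 79.7 for the median and 2065 for the highest. Since the genes were chosen for their 0, these ratios describe these libraries and are no bounds on the difference between the cell types. In bulk RNA, fewer cells that carry a transcript and less of it per cell cannot be told apart.

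The rule can be split, because the siNRF2 and siControl libraries are separate. The siControl libraries alone gave 81 genes, of which 52 also met the rule in the siNRF2 libraries (64.2% of that list). Of these 81 genes, 21 had PAEC counts under siNRF2, at most 12 in sum, and 14 had fewer than 10 counts in a PASMC siNRF2 library, with 6 genes in both. In 75 of the 81, each PASMC siNRF2 library was above each PAEC siNRF2 library in CPM, which the rule fixes for the 52. The siNRF2 libraries alone gave 133 genes, of which the 52 were 39.1%. Of these 133, 70 had PAEC counts under siControl, up to 59 in sum. In 122 of the 133, each PASMC siControl library was above each PAEC siControl library, again fixed by the rule for the 52. Both counts describe the lists and are no separate support for them.

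Genes just under the PASMC minimum differed little in number of counts from the lowest of those inside. The lowest of the 52, at 62201859 to 62206182 on chromosome 7, had 16, 21 and 11 counts in PASMC siNRF2 and 23, 10 and 26 in PASMC siControl. Just outside, the gene at 82200145 to 82209933 on chromosome 4 had 11, 13 and 14 counts in PASMC siNRF2 and 25, 9 and 34 in PASMC siControl, with 0 in PAEC. The limit of 0 in PAEC also left out well expressed genes. The gene at 115215060 to 115239723 on chromosome 4 had 1634, 1573 and 1631 counts in PASMC siNRF2 and 1348, 1598 and 1852 in PASMC siControl, and a single PAEC count. The gene at 58829060 to 58893170 on the same chromosome had 322, 324 and 302 counts in PASMC siNRF2 and 431, 430 and 476 in PASMC siControl, again with 1 PAEC count.

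The 52 genes were spread over 18 chromosomes. Chromosomes 2 and 10 held 6 each, chromosome 5 held 5, chromosomes 4, 7, 8, 9 and 16 held 4 each, and chromosomes 11 and 15 held none. Chromosome 1, with 1587 of the 12418 expressed genes, held 1. The plus strand carried 20 and the minus strand 32. Their exonic length had a median of 2042 bases (quartiles 1207 and 3771), against 2350 bases (1504 and 3622) for the other 12366 expressed genes. They had a median of 7 merged exons, against 9, and a median span of 12.8 kb, against 20.04 kb. A single gene of the 52 had only 1 exon, at 124874151 to 124876710 on chromosome 6.

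The 52 genes often stood in gene-poor stretches. The number of gene midpoints in a window reaching 500 kb to each side, the gene's own included, had a median of 10.5. It was 20 for the other expressed genes. The window held at most 15 genes for 34 of the 52 (65.4%), against 36.9% of the others. It held at least 27 for 12 (23.1%), against 34.4%. These shares are a description of genes that the counts chose. Overlap with another gene was found for 3 of the 52 (5.77%), each on the same strand, against 22.2% of the others. In 2 of the 3 the overlapping genes had no count in any library. The third, at 3791629 to 3796275 on chromosome 20, overlaps a gene at 3791407 to 3794027 that averaged 55.9 ± 6.32 CPM in PASMC siNRF2 and 33.2 ± 7.60 CPM in PASMC siControl (SD, n = 3 each) and 5.445 to 12.95 CPM in PAEC. The 2 genes may share reads, which was not tested. As they lie on the same strand, a strand setting in counting could not tell such reads apart. The overlapping gene had 1366 counts summed over the PAEC libraries, where the gene at 3791629 had no count.

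Of the 52 genes, 10 stood within 200 kb of another, in 4 loci. The largest locus ran from 36258595 to 36388331 on chromosome 16 (129.7 kb) and held 4 genes that follow each other in the table. The third of them, at 36371489 to 36373546 on the minus strand, had 8.46, 7.61 and 7.92 CPM in PASMC siNRF2 and 11.9, 9.05 and 11.9 CPM in PASMC siControl. The fourth, at 36374593 to 36388331 on the plus strand, had 1.65, 1.58 and 1.52 CPM in PASMC siNRF2 and 1.98, 2.72 and 2.50 CPM in PASMC siControl. These neighbours start on opposite strands with no overlap, and for both, each siNRF2 library was below each siControl library. The first pair were lower and their groups overlapped: the gene at 36258595 to 36274047 had 0.369, 0.902 and 1.49 CPM in PASMC siNRF2 and 1.42, 0.993 and 1.29 CPM in PASMC siControl, and the gene at 36294631 to 36297382 had 1.11, 1.01 and 0.933 CPM in PASMC siNRF2 and 0.588, 1.34 and 1.46 CPM in PASMC siControl. None of the 4 passed the test of siNRF2 against siControl (edgeR, adjusted p from 0.155 to 0.894). The nearest genes with more than a few counts on either side were counted in both cell types. The gene at 36116258 to 36121097, on the near side, averaged 6.905 CPM in PASMC and 2.82 CPM in PAEC, and the gene at 37131345 to 37177033, on the far side, 40.5 CPM in PASMC and 33.2 CPM in PAEC.

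On chromosome 2 a pair of genes on the minus strand lay between 88097720 and 88135410. The second, at 88126667 to 88135410, had 2.64, 3.16 and 2.72 CPM in PASMC siNRF2 and 4.76, 7.07 and 2.87 CPM in PASMC siControl, so the groups overlapped by siControl replicate 3. The first, at 88097720 to 88113029, had 0.625, 0.507 and 0.400 CPM in PASMC siNRF2 and 1.02, 0.555 and 0.292 CPM in PASMC siControl. Another gene beside them, at 88217188 to 88227479, was also at 0 in PAEC but too low in PASMC to be included, with 47 counts over the 6 libraries. The next, at 88282961 to 88314254, averaged 59.0 CPM in PASMC and 30.2 CPM in PAEC.

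On chromosome 4 a pair on the minus strand lay between 82285528 and 82300503, 14.98 kb in all. The gene at 82285528 to 82295470 had 2.73, 2.54 and 3.68 CPM in PASMC siNRF2 and 1.42, 3.65 and 4.55 CPM in PASMC siControl. The gene at 82298152 to 82300503 had 1.36, 0.282 and 1.31 CPM in PASMC siNRF2 and 0.866, 1.197 and 1.095 CPM in PASMC siControl. Libraries were furthest apart in siControl for the first gene, with replicate 1 low, and in siNRF2 for the second, with replicate 2 low. The nearest counted genes on either side, at 82278758 to 82280722 and 82300778 to 82304541, were at 0 in PAEC too, with 54 and 83 counts over the PASMC libraries. Further along, the gene at 82256996 to 82258765 had 28 counts in PASMC and 133 in PAEC. The gene just outside the limits at 82200145, described above, lies beyond it on the same side.

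The fourth locus, on chromosome 10, held the genes at 70783424 to 70788309 and 70884531 to 70886355, with 4 other genes between them. Beside the first lay the gene at 70739800 to 70744315, which averaged 33.2 CPM in PASMC and 0.111 CPM in PAEC, with 18 counts over the 6 PAEC libraries.

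**Figure D2:**
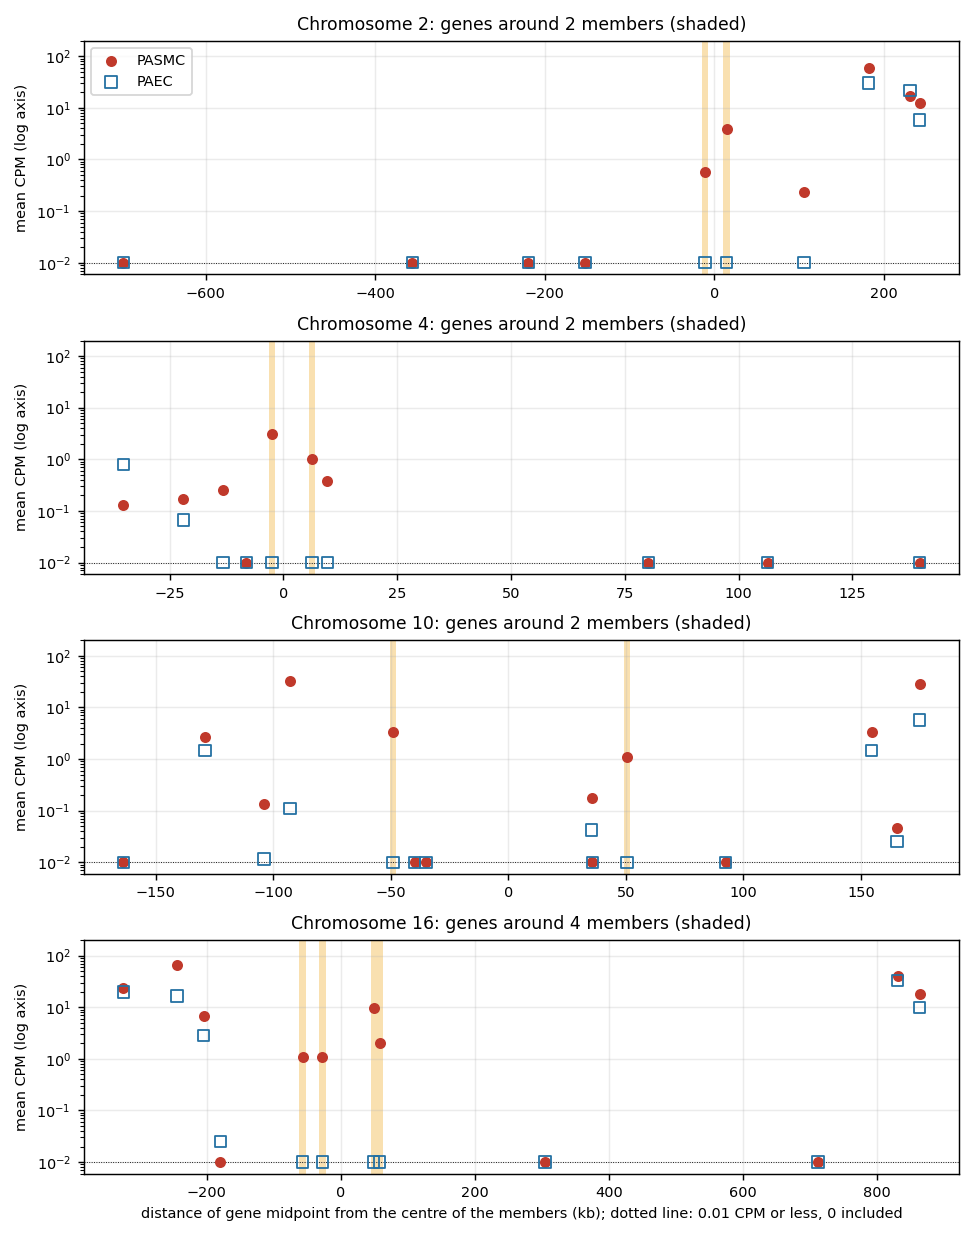
Mean CPM (log axis) in the 6 PASMC libraries (red circles) and the 6 PAEC libraries (blue squares) of each gene in the 4 loci and of the 4 genes on either side, by distance of the gene's midpoint from the centre of the locus in kb. Shading marks the 10 genes counted only in PASMC, and symbols on the dotted line are at 0.01 CPM or less, 0 included. On chromosomes 2 and 4 unshaded genes beside the shaded ones are also on the line in PAEC. On chromosome 16 the unshaded genes next to the shaded run have few or no counts, and genes counted in both cell types lie beyond them.

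The surroundings of the 52 genes as a whole, the 4 loci included, were mixed. The nearest tested gene on each side that was not one of the 52 gave 90 distinct flanking genes, at a median gap of 125.5 kb. Under siControl, 32 of them (35.6%) were higher in PASMC and 26 (28.9%) higher in PAEC (edgeR, adjusted p under 0.05), where 28.3% and 27.7% of all 14584 tested genes were. Their median log2 difference, PASMC minus PAEC, was 0.13, against 0.032 over all tested genes. The flanking genes had median levels of 17.9 CPM in PASMC and 14.0 CPM in PAEC.

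Levels of the 52 genes in PASMC were low. Their mean over the 6 libraries ran from 0.496 to 37.5 CPM with a median of 1.45 CPM, against a median of 25.2 CPM for the other expressed genes. Under 1 CPM were 13 genes, 34 lay between 1 and 5 CPM, and 5 were above. Per kb of exon the median was 0.922 CPM, against 10.6 CPM for the others. The most abundant gene, at 8878270 to 8884423 on chromosome 17, supplied 23.8% of the summed level of the 52, and the 8 most abundant supplied 55.5%. Per kb of exon, this gene (16.7 CPM) was followed by the chromosome 16 gene at 36371489 (14.7 CPM) and the gene at 39602089 to 39604070 on chromosome 10 (10.3 CPM).

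The other genes among the 8 most abundant varied in how closely their libraries stood together. The gene at 8459660 to 8574655 on chromosome 5 had 4.15, 4.68 and 4.82 CPM in PASMC siNRF2 and 4.08, 4.64 and 5.18 CPM in PASMC siControl, nearly the same range. The gene at 39602089 on chromosome 10 had 4.06, 3.58 and 5.97 CPM in PASMC siNRF2 and 5.97, 3.36 and 4.21 CPM in PASMC siControl. The gene at 53915807 to 54099120 on chromosome 18 had 5.96, 3.55 and 6.42 CPM in PASMC siNRF2 and 7.95, 6.63 and 7.10 CPM in PASMC siControl, with siNRF2 replicate 2 low. The gene at 23113048 to 23121761 on chromosome 8 had 12.4, 13.9 and 12.3 CPM in PASMC siNRF2 and 8.32, 9.08 and 12.02 CPM in PASMC siControl. In the last 2 genes the groups did not overlap, though on chromosome 8 siControl replicate 3 came close to the siNRF2 libraries.

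Replicates of a group differed by a median coefficient of variation of 0.239 over the 52 genes in PASMC siNRF2 and 0.235 in PASMC siControl. The highest values were 0.619 in siNRF2 and 0.878 in siControl. The gene with the highest siControl value, at 82506934 to 82533689 on chromosome 8, had 1.19, 0.592 and 1.15 CPM in PASMC siNRF2 and 0.309, 0.409 and 1.46 CPM in PASMC siControl. Of the siControl libraries, replicate 1 was the lowest for 22 of the 52 genes, replicate 2 for 16 and replicate 3 for 14. Over all tested genes these shares were 31.5%, 33.4% and 35.1%. For the siNRF2 libraries the counts were 15, 17 and 20, and the shares over all tested genes 36.3%, 35.4% and 28.3%.

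The siRNA comparison asked which of these genes changed in PASMC given siNRF2. The rule takes counts from both siRNA groups of PASMC and sets its contrast between cell types, so this contrast was not used to choose the genes, although a gene that fell under 10 counts in a library would have been lost. All 52 passed the filter on low counts. By the edgeR quasi-likelihood test (adjusted p under 0.05 over all 14584 tested genes), 1 of the 52 rose, 2 fell and 49 did not pass. Of all tested genes 30.7% were called, 16.1% as rises and 14.6% as falls, and of the 52 genes 5.77%. With only the 6 PASMC libraries in the fit, 1 rose and 5 fell, where 35.3% of all genes tested were called. DESeq2 gave 1 rise and 2 falls among the 46 of the 52 genes with an adjusted p, where 35.8% of all genes were called, and limma voom gave 2 rises and 5 falls, where 33.5% were. The standard errors were wide: their median was 0.58 for the 52 genes, or 0.40 with only the PASMC libraries in the fit, and 0.15 for all tested genes. With all 12 libraries in the fit, tested genes in the middle quartiles of the 52 genes' level had a median SE of 0.43. At a like level the 52 genes thus had the wider errors in that fit. Genes at low levels were called less often in general. Of the 1442 tested genes in the middle quartiles of the 52 genes' level, 8.53% were called, and 0 of the 26 members there (edgeR). None of these 26 had an unadjusted p under 0.05 (edgeR), and the share of the 1442 genes with such a p was not counted. DESeq2 called 0 of the 26, against 11.8% of the genes it tested in that range, and limma voom 2, against 9.78%. With only the PASMC libraries in the edgeR fit, 1 of the 26 was called, against 9.93% of the genes tested in that range. That range was set after the values were seen.

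The gene that rose was ENSRNOG00000011423 on chromosome 17 (8878270 to 8884423, plus strand, 3 merged exons, 2251 bases of exon). It had 59.1, 45.4 and 43.9 CPM in PASMC siNRF2 and 25.9, 22.7 and 28.0 CPM in PASMC siControl. Each siNRF2 library was well above each siControl library, and replicate 1 was the highest of its group. The means were 49.5 ± 8.37 CPM in siNRF2 and 25.5 ± 2.67 CPM in siControl (SD, n = 3 each). The log2 fold change was 0.95 (edgeR, SE 0.15, adjusted p = 0.000234). The call was kept in each of the 13 alternative fits, with log2 fold changes from 0.81 to 1.03. Its nearest tested neighbours had log2 fold changes of -0.64 (edgeR, adjusted p = 0.0385) on one side and 0.20 (adjusted p = 0.531) on the other.

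The larger of the falls was that of ENSRNOG00000028548 on chromosome 10 (70783424 to 70788309, minus strand, 4 merged exons, 1291 bases of exon). It had 2.07, 1.80 and 2.24 CPM in PASMC siNRF2 and 4.12, 4.35 and 5.69 CPM in PASMC siControl, and the groups did not overlap. The log2 fold change was -1.21 (edgeR, SE 0.37, adjusted p = 0.0225). Leaving out siControl replicate 1 kept the call (adjusted p = 0.0434, edgeR), and leaving out any of the other 5 PASMC libraries ended it, with adjusted p from 0.053 to 0.104. Its neighbour in the locus, at 70884531, had 0.511, 1.27 and 0.986 CPM in PASMC siNRF2 and 0.897, 1.75 and 1.22 CPM in PASMC siControl, with a log2 fold change of -0.48 (edgeR, SE 0.65, adjusted p = 0.636). Of the tested genes beside it, the one at 70739800 had a log2 fold change of -0.08 (adjusted p = 0.829), and the next tested gene on the other side fell by 1.42 on the log2 scale (adjusted p = 0.00327).

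The second fall was that of ENSRNOG00000008223 on chromosome 5 (49311030 to 49333056, plus strand, 2 merged exons, 5465 bases of exon). It had 8.01, 7.55 and 7.30 CPM in PASMC siNRF2 and 14.0, 11.7 and 11.1 CPM in PASMC siControl. The siNRF2 libraries stood close together and below each siControl library. The log2 fold change was -0.68 (edgeR, SE 0.22, adjusted p = 0.0304), and with no filter on low counts it was -0.67 (adjusted p = 0.0505). Leaving out siControl replicate 3 kept the call (adjusted p = 0.047, edgeR), and leaving out any other PASMC library ended it (adjusted p from 0.0695 to 0.141). After correcting the libraries for local gene density, the log2 fold change was -0.52 (adjusted p = 0.102, edgeR). This gene had 6 genes in its window, and the density trend of the libraries differed between the siRNA groups, at slopes of 0.0429 to 0.0901 in PASMC siNRF2 and -0.0861 to -0.0417 in PASMC siControl.

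Of the 49 genes that did not pass, 5 were called in another fit. Of all tested genes, limma voom called 33.5% and the fit to the 6 PASMC libraries 35.3%. The share of all tested genes called in at least 1 fit was not counted. The gene at 27153925 to 27158628 on chromosome 13 had 0.653, 0.845 and 0.506 CPM in PASMC siNRF2 and 1.30, 2.28 and 1.26 CPM in PASMC siControl, without overlap. Its log2 fold change was -1.27 (edgeR, SE 0.63, adjusted p = 0.151), the lowest of the 52, and the adjusted p was 0.0348 with only the PASMC libraries in the fit. The gene at 28442229 to 28973246 on chromosome 9 had 0.880, 1.44 and 0.586 CPM in PASMC siNRF2 and 1.24, 3.095 and 1.995 CPM in PASMC siControl, and its groups overlapped. Its log2 fold change was -1.12 (edgeR, SE 0.59, adjusted p = 0.178), and it was called by limma voom (adjusted p = 0.0446) and with the replicate number as a block (adjusted p = 0.0413). The chromosome 16 gene at 36371489 and the chromosome 2 gene at 88126667 had log2 fold changes of -0.46 (edgeR, SE 0.23, adjusted p = 0.155) and -0.79 (SE 0.39 and adjusted p = 0.151), and with only the PASMC libraries in the fit adjusted p was 0.0365 and 0.0482. The chromosome 8 gene at 23113048 had 0.39 (edgeR, SE 0.22, adjusted p = 0.206) and was called by limma voom only (adjusted p = 0.0408).

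**Figure D3:**
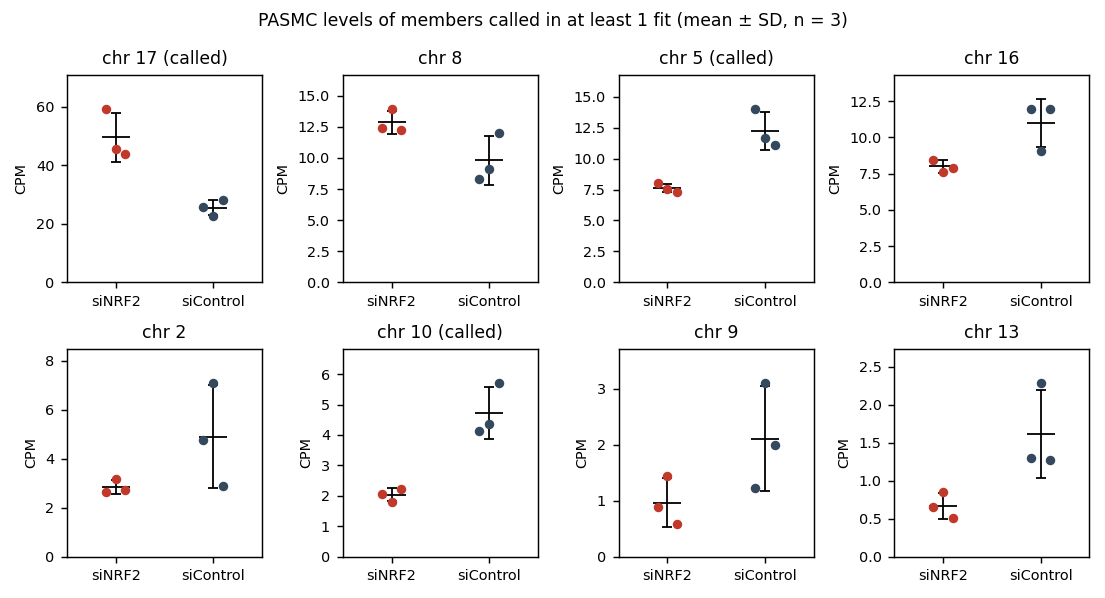
CPM in each PASMC library, siNRF2 at the left and siControl at the right of each panel, for the 8 of the 52 genes called in at least 1 fit, with the mean and SD (n = 3) in black. Panels marked as called passed in the fit to all 12 libraries. The share of all tested genes called in at least 1 fit was not counted. The chromosome 17 gene stands at 43.9 to 59.1 CPM in siNRF2 and 22.7 to 28.0 CPM in siControl, and the groups overlap on chromosomes 2 and 9.

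Over the 52 genes the log2 fold changes had a median of -0.11 (quartiles -0.46 and 0.23). The median was 0.0048 (quartiles -0.31 and 0.30) over all tested genes, and -0.051 over those in the middle quartiles of the 52 genes' level. Of the 52, 34 (65.4%) were below 0, against 49.4% of all tested genes. Groups did not overlap for 4 genes with siNRF2 higher (7.69%) and 11 with siNRF2 lower (21.2%), where 24.1% and 22.1% of all tested genes stood apart in these directions. The 34 with at most 15 genes in the window had a median change of -0.32 on the log2 scale. It was -0.15 for the 5425 tested genes in such windows. The 12 with at least 27 had -0.088, against 0.17 for 4955 tested genes, and the 6 between had 0.34, against -0.012 for 4158. With the gene density trend of each library removed, the median log2 fold change was -0.16 over the 52 genes and -0.011 over all tested genes. The summed level of the 52 genes was 169.9, 156.9 and 158.6 CPM in PASMC siNRF2 and 151.0, 148.7 and 160.6 CPM in PASMC siControl, and the groups overlapped. Without the chromosome 17 gene it was 110.8, 111.5 and 114.7 CPM in siNRF2 and 125.2, 126.0 and 132.6 CPM in siControl, each siNRF2 library below each siControl library. The gene left out was the only called rise, while the called falls stayed in this sum.

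Other large values did not pass. The gene at 28791875 to 28801223 on chromosome 2 had 0.681, 0.704 and 0.693 CPM in PASMC siNRF2 and 0.433, 0.380 and 0.268 CPM in PASMC siControl. These groups did not overlap, and the log2 fold change of 0.94 (edgeR, SE 0.76, adjusted p = 0.397) was close in size to that of the called chromosome 17 gene, whose SE was 0.15. The gene at 53872 to 54885 on chromosome 12 had 3.38, 3.04 and 2.64 CPM in PASMC siNRF2 and 1.89, 1.93 and 2.21 CPM in PASMC siControl, also without overlap, with a log2 fold change of 0.59 (edgeR, SE 0.41, adjusted p = 0.328). The gene at 123612067 to 123631109 on chromosome 3 had a log2 fold change of -1.11 (edgeR, SE 0.79, adjusted p = 0.333), with 0.540, 0.338 and 0.373 CPM in PASMC siNRF2 and 1.08, 1.34 and 0.292 CPM in PASMC siControl. Here siControl replicate 3 lay below all siNRF2 libraries and the other siControl libraries above them.

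**Figure D4:**
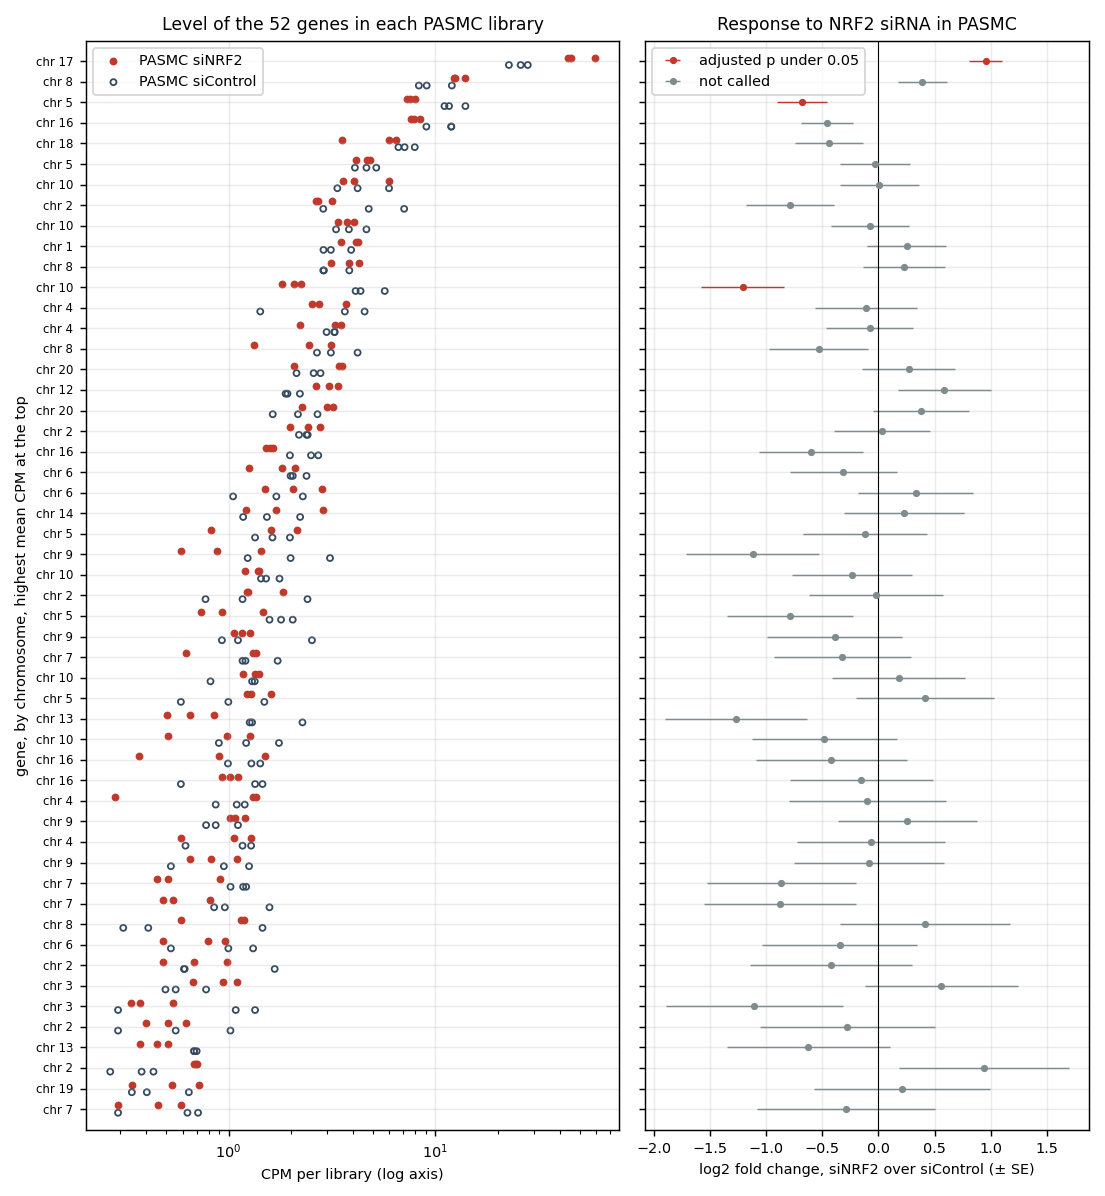
Left, CPM (log axis) of each of the 52 genes in the 3 PASMC siNRF2 libraries (filled) and the 3 PASMC siControl libraries (open), ordered by mean level and named by chromosome. Right, log2 fold change of siNRF2 over siControl with its SE for the same genes, in red where adjusted p was under 0.05. The 3 called genes are among the 12 most abundant, and the errors widen toward the bottom.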

How the data were processed

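Per the labels' protocols, Trizol was used for RNA extraction and a directional kit for library preparation. Counts in the table deposited by the authors are whole numbers for each gene without normalization, listed beside coordinates of exons and exonic length. Per the submitters' processing notes, the tools included HISAT2 2.0.5, featureCounts 2.0.3 and DESeq2 1.32.0, with no settings. Genes counted in PASMC only were found by the limits stated above. These genes, the loci, the features described and the rule for naming genes (the 8 most abundant, called genes, genes within 200 kb of each other and genes next to the limits) were chosen with earlier results of these data known. Others named were picked after their values were seen. Marker and gene lists by symbol were not run. Genes passing filterByExpr (14584) were scaled by TMM and fitted with edgeR 4.0.16 in R 4.3.3 (estimateDisp, robust glmQLFit, glmQLFTest) with 1 coefficient for each of the 4 groups over 12 libraries, after a check on simulated data. Adjusted p-values are Benjamini-Hochberg over all tested genes. Each SE given for edgeR was derived from its test, as the size of the log2 fold change over the square root of the F statistic. Alternatives used limma 3.58.1 and DESeq2 1.42.0. Replicates differed beyond sampling noise (chi-square per gene 9.09 to 42.3), so none were merged.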

Additional observations from a re-analysis of the deposited data

How the results depend on the processing

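The count of rises among the 52 genes was 1 in the fits run but limma voom, with 2 (17.7% of all tested genes rose there). The count of falls, 2 at first (14.6% of all tested genes), was 5 with limma voom (15.8%), 5 with only the 6 PASMC libraries in the fit (17.2%), 1 with no filter on low counts (9.61%, the chromosome 5 gene being lost), 1 with the gene density trend removed (13.5%, the same gene being lost), and 0 to 1 with single PASMC libraries left out (9.59 to 13.7%). With the replicate number as a block within the 6 PASMC libraries it was 6 (17.8%). Deviations of same-numbered PASMC libraries from their group means correlated at -0.037, 0.013 and 0.0028 over all tested genes. They cannot show if these libraries shared an animal or culture, which the design text does not say. The median log2 fold change of the 52 genes was -0.199 to -0.062 with single libraries left out, and moved by less than the spread between libraries (0.048) only in 1 of these 6 fits. The number of genes was 33 with a minimum of 20 counts, 67 with 5, 81 by siControl libraries alone and 133 by siNRF2 libraries alone. The cause of these differences was not tested beyond what each setting changes.

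In at least 1 alternative 18 of the 52 genes changed sign, 0 of them called by edgeR, DESeq2 or limma voom in any fit run. Their log2 fold changes were at most 0.423 in size. Among the 16 genes followed one by one, the chromosome 10 gene at 39602089 had -0.036 with library totals and -0.24 to 0.263 with libraries left out, the chromosome 4 gene at 82285528 had 0.001 with the block and -0.458 to 0.232 with libraries left out, and the chromosome 5 gene at 8459660 had 0.087 with the density trend removed and -0.109 to 0.060 with libraries left out. With libraries left out, the genes at 88097720, 82298152 and 36294631 ran from -0.622 to 0.274, -0.40 to 0.342 and -0.458 to 0.075. The median SE of the 52 genes was 0.576 with all 12 libraries in the fit and 0.398 with only the PASMC libraries, and the cause was not tested.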

Other observations

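Outside chromosomes 1 to 20, 5 genes met the same counts. Of these, 4 were on the X chromosome, and the highest lay at 74333329 to 74337975, with 2275, 2985 and 3178 counts in PASMC siNRF2, 2665, 1883 and 3731 in PASMC siControl and 0 in each PAEC library. A gene of 68 bases nearby, at 74325012 to 74325079, had 1051, 1429 and 1330 counts in PASMC siNRF2 and 1770, 1930 and 1740 in PASMC siControl. The fifth lay on the unplaced scaffold KL567939.1 (129152 to 131036), with 159, 104 and 137 counts in PASMC siNRF2 and 33, 40 and 20 in PASMC siControl. The mirror counts, at least 10 in each PAEC library and 0 in each PASMC library, were met outside chromosomes 1 to 20 by 5 genes, all on the Y chromosome. Of the 48 Y genes in the table, 3 had a count in a PASMC library and 12 in a PAEC library.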
